A study of Mus musculus with 17 samples.

Results

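The Nr4a family comprises 3 orphan nuclear receptors, Nr4a1 (Nur77), Nr4a2 (Nurr1) and Nr4a3 (Nor1). Its members were taken by symbol from the gene counts of a kindling experiment in the mouse hippocampus, and all 3 were found among the 55471 genes counted. RNA was compared in 17 libraries from C57BL/6 mice (C57BL/6J in the study's methods) aged 3 to 6 months, in 6 groups formed by 2 genotypes and 3 treatments. CBP-ifKO mice carried floxed Crebbp and creERT2 under the Camk2a promoter, which restricts loss of CBP to forebrain excitatory neurons, whereas the whole hippocampus was sequenced. Controls were littermates which, by the study's design text and methods, lacked creERT2, although the description in the labels names Camk2a_creERT2 for them too. Counts of Esr1, part of which creERT2 carries, followed the design text. Mean normalized counts of Esr1 were 54.2, 54.6 and 67.2 in Control Sal, PTZ0 and PTZ45. In the same CBP-ifKO groups they were 809.5, 811.3 and 833. All mice of both genotypes received 5 doses of tamoxifen. The Sal group was given saline without kindling. Kindling consisted of 45 mg/kg pentylenetetrazol (PTZ, a convulsant) on alternate days, followed 1 week later by saline in the PTZ0 group or by 45 mg/kg PTZ in the PTZ45 group. Hippocampi were collected 45 min after the last injection. There were 2 libraries of Control PTZ45 and 3 of every other group. The methods name individual male mice for the saline-treated groups. Where separate animals are not stated, p-values measure only the spread between libraries.

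Nr4a receptors bind DNA without a known hormone, as monomers at the NBRE sequence or as dimers, and Nr4a1 and Nr4a2 can also pair with retinoid X receptors. The 3 genes are immediate early genes: in neurons, calcium and cAMP signals act through CREB, MEF2 and SRF at their promoters, and CREB recruits the acetyltransferase CBP encoded by Crebbp. In the hippocampus they are known for their rise after learning and after seizures. Nr4a2 is also required in midbrain dopamine neurons.

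The promoters are shown because CREB, which recruits CBP, binds CRE sequences. The sequences are from RefSeq on GRCm38.p6, run from 250 bases before the start to the first 50 transcribed bases, and are written 5′ to 3′ along the gene. Capitals mark TGACG or its reverse complement CGTCA, the 5-base core of the cAMP response element (CRE).
Nr4a1: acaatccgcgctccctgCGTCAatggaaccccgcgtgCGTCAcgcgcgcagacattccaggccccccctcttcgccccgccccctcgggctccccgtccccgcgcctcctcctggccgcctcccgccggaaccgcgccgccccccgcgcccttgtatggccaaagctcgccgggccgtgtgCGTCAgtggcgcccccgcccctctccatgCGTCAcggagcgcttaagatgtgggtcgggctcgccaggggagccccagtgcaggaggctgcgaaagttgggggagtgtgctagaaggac
Nr4a2: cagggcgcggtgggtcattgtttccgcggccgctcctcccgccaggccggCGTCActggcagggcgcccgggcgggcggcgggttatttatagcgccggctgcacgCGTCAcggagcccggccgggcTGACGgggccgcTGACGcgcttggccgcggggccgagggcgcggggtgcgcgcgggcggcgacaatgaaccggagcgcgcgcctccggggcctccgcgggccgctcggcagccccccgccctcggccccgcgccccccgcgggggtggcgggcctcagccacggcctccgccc
Nr4a3: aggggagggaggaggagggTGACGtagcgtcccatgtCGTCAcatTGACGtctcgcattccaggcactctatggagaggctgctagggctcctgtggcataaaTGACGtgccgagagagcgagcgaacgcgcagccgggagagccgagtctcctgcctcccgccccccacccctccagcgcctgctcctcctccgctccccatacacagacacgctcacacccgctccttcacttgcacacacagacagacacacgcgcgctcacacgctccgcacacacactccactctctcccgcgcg
A single RefSeq start was used for each gene, whereas GENCODE M21 lists 4 transcripts for Nr4a1, 6 for Nr4a2 and 4 for Nr4a3. The start used lies 12577 bases inside the annotated span of Nr4a1, 152 bases inside that of Nr4a3 and at the edge of that of Nr4a2, and windows at other starts were not read. These windows lie at chr15:101266596-101266895 on the plus strand for Nr4a1, chr2:57123954-57124253 on the minus strand for Nr4a2 and chr4:48045055-48045354 on the plus strand for Nr4a3.

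Each window held 4 CRE cores, counted on both strands. Of the windows of 21262 protein-coding genes, 23.6% held at least 1 core and 0.325% held at least 4. The Nr4a windows are rich in G and C (72.3% for Nr4a1, 81.7% for Nr4a2 and 64.7% for Nr4a3), and these shares were not matched on base content. The cores of Nr4a1 fell in 2 pairs, at 233 and 213 bases before the start and at 69 and 40 bases before it. Those of Nr4a2 began 200, 144, 123 and 111 bases before the start, and those of Nr4a3 began 231, 213, 205 and 147 bases before it. No window held the full palindrome TGACGTCA, in which both orientations of the core overlap and which 2.23% of windows held. None held an NBRE (AAAGGTCA, 1.3% of windows), an AP-1 site (TGANTCA, 6.99%), a CArG box (1.52%) or the E-box CACGTG (7.84%). The Nr4a2 window alone held a MEF2 site (1.66%), 167 to 158 bases before the start. Inside it lay a match to the letters of a TATA box (12.6%), on the strand opposite to the gene, 164 to 159 bases before the start. A match describes these letters only, and a motif outside these windows was not looked for.

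**Figure D1:**
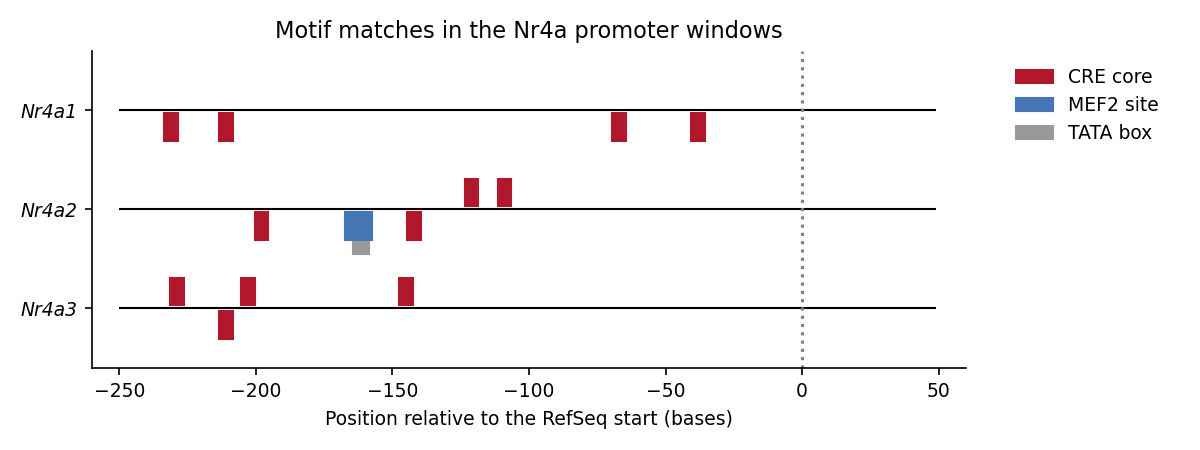
Position of motif matches in bases relative to the RefSeq start (dotted line) in the 3 promoter windows, with blocks above a line for the gene's strand and below it for the other strand. Each gene has 4 CRE cores, and the nearest to a start lies 40 bases before that of Nr4a1.

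In the annotation of the same build (GENCODE M21), Nr4a1 (ENSMUSG00000023034) spans chr15:101254269-101274795, Nr4a2 (ENSMUSG00000026826) chr2:57106830-57124003 and Nr4a3 (ENSMUSG00000028341) chr4:48045153-48086447. All are protein-coding genes that no other annotated gene overlaps. Library totals ran from 5831992 to 18735643 counts. The lowest raw count of a member was 129, for Nr4a1 in CBP-ifKO Sal replicate 2, with a counting error of 8.8%, and the highest was 2879, for Nr4a1 in Control PTZ45 replicate 1, with 1.9%. Crebbp, the targeted gene, stood at 2129 ± 296 normalized counts (SD, n = 3) in Control Sal. In CBP-ifKOs it stood at 58.0% of that level in Sal, 57.3% in PTZ0 and 55.7% in PTZ45. These counts cover all exons of the gene and all cells of the tissue. Dentate granule cell (7 of 7) and CA pyramidal cell (8 of 8) markers were detected in every group. The summed choroid plexus markers ranged from 418 to 44280 normalized counts, with high libraries in 5 of the groups, and their part in the results was not tested. The labels place Control Sal and Control PTZ0 on lane 3, Control PTZ45 and CBP-ifKO Sal on lane 4, and both kindled CBP-ifKO groups on lane 5. Lane and group cannot be told apart for PTZ45 against Sal or PTZ0 in controls, for PTZ45 or PTZ0 against Sal in CBP-ifKOs, or for genotype, whereas PTZ0 against Sal in controls and PTZ45 against PTZ0 in CBP-ifKOs lie within a lane.

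Nr4a1 showed the largest response of the family. In controls its normalized counts (raw counts divided by size factors over all 17 libraries) were 246, 283 and 396 in Sal, 285, 269 and 226 in PTZ0, and 2546 and 2050.2 in PTZ45. Both PTZ45 libraries stood far above the other 6 control libraries, and Sal and PTZ0 overlapped. In CBP-ifKOs the counts were 181, 268 and 249 in Sal, 184, 192 and 151 in PTZ0, and 326, 406 and 485 in PTZ45. The CBP-ifKO PTZ45 libraries lay above all the other CBP-ifKO libraries, but the lowest of them was below the highest Control Sal library. In bulk tissue, fewer cells that express a gene and less RNA per cell cannot be told apart.

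Nr4a1 was 7.44-fold higher in PTZ45 than in Sal in controls (95% interval 5.01 to 11; log2 fold change 2.89 ± 0.29, SE; DESeq2 adjusted p = 1.2e-20). Against PTZ0 it was 8.83-fold higher (7.53 to 10.4; adjusted p = 1.11e-153 in DESeq2). In CBP-ifKOs it was 1.76-fold higher than in Sal (1.39 to 2.23; adjusted p = 0.00203 in DESeq2). Against PTZ0, in the same lane, it was 2.31-fold higher (1.86 to 2.88; adjusted p = 1.97e-10 in DESeq2). From Sal to PTZ45 the mean rose by 1990 ± 252 normalized counts (SE) in controls and by 173 ± 52.9 in CBP-ifKOs, 8.7% of the control rise. From PTZ0 to PTZ45 it rose by 2038 ± 248.5 and 229.8 ± 47.4, with the CBP-ifKO rise at 11.3% of the control rise. The CBP-ifKO call against Sal was lost without Sal replicate 1, PTZ45 replicate 2 or PTZ45 replicate 3, with DESeq2 adjusted p from 0.055 to 0.155 and log2 fold changes from 0.66 to 0.82, while no alternative lost the call against PTZ0.

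**Figure D2:**
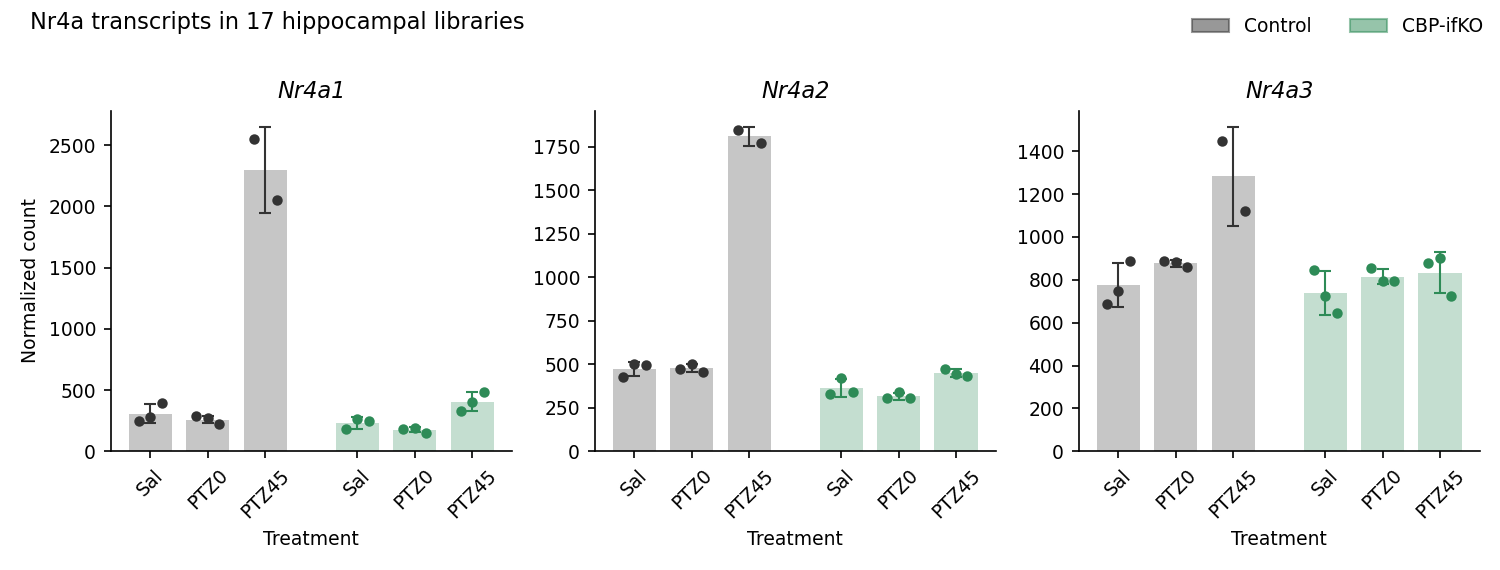
Normalized counts of the 3 members by genotype and treatment, each panel with its own axis from 0; points are libraries, bars are means and error bars are SD (n = 3, or 2 for Control PTZ45). The Control PTZ45 libraries stand above every other library for each member, at 2050.2 to 2546 for Nr4a1, 1772 to 1848 for Nr4a2 and 1120.2 to 1446 for Nr4a3.

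Nr4a2 rose in controls with less spread between libraries. Its normalized counts in controls were 426, 500 and 495 in Sal, 476, 504 and 456 in PTZ0, and 1848 and 1772 in PTZ45. In CBP-ifKOs they were 329, 423 and 339 in Sal, 304, 341 and 304 in PTZ0, and 474, 443 and 435 in PTZ45. The PTZ45 libraries of CBP-ifKOs lay above their own Sal and PTZ0 libraries but within the range of the unstimulated controls, with a mean at 95.1% of Control Sal.

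In controls Nr4a2 was 3.83-fold higher in PTZ45 than in Sal (3.31 to 4.43; log2 fold change 1.94 ± 0.11, SE; DESeq2 adjusted p = 5.5e-69) and 3.78-fold higher than in PTZ0 (3.34 to 4.29; adjusted p = 1.8e-94). In CBP-ifKOs the fold over Sal was 1.26 (1.05 to 1.5), with an unadjusted p of 0.0111 that did not pass across all genes (DESeq2 adjusted p = 0.717). The fold over PTZ0, within lane 5, was 1.42 (1.21 to 1.67; adjusted p = 0.0208 in DESeq2). That call was lost when any of 5 of the 6 libraries was left out, all but CBP-ifKO PTZ0 replicate 2 (adjusted p 0.14 to 0.606 in DESeq2), and with the replicate number as a block (0.51; adjusted p = 1 in DESeq2), although the log2 fold change stayed between 0.47 and 0.57. The rise of the mean from Sal to PTZ45 was 1336 ± 45 normalized counts (SE) in controls and 87 ± 32.2 in CBP-ifKOs, 6.51% of the control rise. From PTZ0 to PTZ45 it was 1332 ± 40.5 and 134 ± 17.1, or 10.1% of the control rise.

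Nr4a3 had the smallest response. Its normalized counts in controls were 689, 749 and 887 in Sal, 888, 882 and 860 in PTZ0, and 1446 and 1120.2 in PTZ45. In CBP-ifKOs they were 844, 726 and 644 in Sal, 856, 796 and 793 in PTZ0, and 877, 900 and 725 in PTZ45. All 9 CBP-ifKO libraries and the 6 control libraries without PTZ on the last day shared 1 range, and only the Control PTZ45 libraries lay above it.

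In controls Nr4a3 was 1.66-fold higher in PTZ45 than in Sal (1.38 to 1.98; log2 fold change 0.73 ± 0.13, SE; DESeq2 adjusted p = 8.44e-06) and 1.46-fold higher than in PTZ0 (1.27 to 1.69; adjusted p = 3.56e-05). Without Control PTZ45 replicate 1, the higher of the pair, the log2 fold change over Sal fell to 0.53 and the call was lost (DESeq2 adjusted p = 0.0811). The log2 fold change over PTZ0 fell from 0.55 to 0.35 without that library and stayed called (DESeq2 adjusted p = 0.0323), whereas with the replicate number as a block it was 0.53 and not called (DESeq2 adjusted p = 0.104). Over Sal the call was kept with that block but lost with a block by the numbers in the column names (log2 fold change 0.70; DESeq2 adjusted p = 0.253). In CBP-ifKOs the fold was 1.13 over Sal (0.952 to 1.33; adjusted p = 1 in DESeq2) and 1.02 over PTZ0 (0.894 to 1.18; adjusted p = 1 in DESeq2). The mean rose by 508 ± 173 normalized counts (SE) from Sal in controls, where the CBP-ifKO means differed by 95.6 ± 79.8, or 18.8% of it, and from PTZ0 the values were 407 ± 163 and 19 ± 58.5, or 4.68%. The interval over PTZ0 leaves room for a rise of up to 1.18-fold within the lane.

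Among all genes tested, 0.939% were called higher in PTZ45 than in Sal in controls, against 3 of 3 members. In CBP-ifKOs 0.086% were called higher, against 1 of 3 members, Nr4a1. Against PTZ0 the shares were 1.18% in controls, where 3 of 3 members were called, and 0.0607% in CBP-ifKOs, where Nr4a1 and Nr4a2 were called. Both sets of comparisons share their PTZ45 libraries. By size of the log2 fold change, Nr4a1 ranked 17, Nr4a2 35 and Nr4a3 105 among the 163 genes higher in Control PTZ45 than in Sal.

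Kindling without PTZ on the last day moved no member past the threshold. In controls, PTZ0 against Sal gave log2 fold changes of -0.25 ± 0.16 (SE) for Nr4a1, 0.02 ± 0.10 for Nr4a2 and 0.18 ± 0.09 for Nr4a3, within lane 3. In CBP-ifKOs they were -0.39 ± 0.18, -0.18 ± 0.14 and 0.14 ± 0.11. DESeq2 adjusted p was 1 for each member in both genotypes. Without adjustment, p was 0.0313 for Nr4a1 in CBP-ifKOs and from 0.0564 to 0.869 for the other 5 values, and edgeR called no member either. Of all genes tested in DESeq2, 0.00843% were called in controls and 0.0112% in CBP-ifKOs. In edgeR, 46 of 35608 genes were called higher and 39 lower in controls. In CBP-ifKOs 2 of 35733 were called higher and 19 lower by edgeR. The log2 fold change of Nr4a1 in controls ran from -0.39 without Control Sal replicate 1 to -0.02 without Control Sal replicate 3, and was -0.15 without Control PTZ0 replicate 3. Over all alternatives, that of Nr4a3 in controls ran from 0.095 to 0.29. In CBP-ifKOs the ranges were -0.548 to -0.29 for Nr4a1, -0.241 to -0.08 for Nr4a2 and 0.039 to 0.265 for Nr4a3.

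Without PTZ on the last day, Nr4a1 and Nr4a2 were called lower in CBP-ifKOs than in controls in the kindled mice. In PTZ0 the CBP-ifKO level was 0.673 of the control level for Nr4a1 (0.548 to 0.827; DESeq2 adjusted p = 0.00573) and 0.663 for Nr4a2 (0.571 to 0.769; adjusted p = 7.05e-06). In Sal the ratios were 0.743 for Nr4a1 (0.577 to 0.956; adjusted p = 0.313 in DESeq2) and 0.755 for Nr4a2 (0.633 to 0.902; adjusted p = 0.0782 in DESeq2), but neither was called, with unadjusted p of 0.0211 and 0.00192. The edgeR quasi-likelihood test called both in Sal, with adjusted p = 0.02 for Nr4a1 and 0.00697 for Nr4a2. It called 526 of 35911 genes lower there, beside 266 of 15004 in DESeq2. The log2 fold change of Nr4a1 in Sal, -0.43, was -0.21 without Control Sal replicate 3 and -0.27 without CBP-ifKO Sal replicate 1 (DESeq2 adjusted p = 0.977 and 0.946). Nr4a3 had ratios of 0.952 in Sal (0.803 to 1.13) and 0.929 in PTZ0 (0.833 to 1.03), with DESeq2 adjusted p = 0.94 and 0.549. All genes tested were called lower at 1.77% in Sal, where 0 of 3 members were, and at 5.25% in PTZ0, where 2 of 3 were. The PTZ0 call of Nr4a1 was lost without Control PTZ0 replicate 1 or 2 or CBP-ifKO PTZ0 replicate 3 (adjusted p 0.0959 to 0.167 in DESeq2), and lane and genotype cannot be told apart in these comparisons.

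After PTZ all 3 members were lower in CBP-ifKOs than in controls, where 2.82% of all genes tested were called lower. The CBP-ifKO level was 0.176 of the control level for Nr4a1 (0.145 to 0.214; DESeq2 adjusted p = 1.65e-65) and 0.249 for Nr4a2 (0.216 to 0.288; adjusted p = 1.35e-75). For Nr4a3 it was 0.651 (0.544 to 0.778; adjusted p = 0.000263 in DESeq2). The Nr4a3 call was lost without Control PTZ45 replicate 1 (log2 fold change -0.42; DESeq2 adjusted p = 0.333) and with the replicate number as a block (-0.52).

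The difference between genotypes in the response was tested as an interaction. For Nr4a1 the log2 response over Sal was smaller in CBP-ifKOs, with an interaction of -2.09 ± 0.36 (SE; DESeq2 adjusted p = 5.25e-06), and over PTZ0 the interaction was -1.93 ± 0.20 (adjusted p = 9.56e-19). For Nr4a2 the interactions were -1.60 ± 0.16 over Sal (adjusted p = 2.27e-20) and -1.41 ± 0.14 over PTZ0 (adjusted p = 2.66e-22). For Nr4a3 they were -0.56 ± 0.19 (unadjusted p = 0.00357; DESeq2 adjusted p = 0.699) and -0.52 ± 0.15 (unadjusted p = 0.000541; DESeq2 adjusted p = 0.121), neither called, whereas edgeR called both with adjusted p = 0.00615 and 0.00156. Without Control PTZ45 replicate 1 they were -0.36 and -0.32. Negative interactions were called in DESeq2 for 0.329% of all genes tested over Sal and 0.423% over PTZ0. The numbers of genes were 69 and 82, whereas edgeR called 104 of 37844 over Sal and 133 of 37630 over PTZ0. For Nr4a1 and Nr4a2 every alternative, each left-out library included, kept both calls. The paper reports that kindling brought all control mice to seizures at this dose, whereas no CBP-ifKO reached the stage of progressive seizures. Seizure severity was not analysed here. The strength of the stimulus in each genotype therefore cannot be told apart from the response to it.

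**Figure D3:**
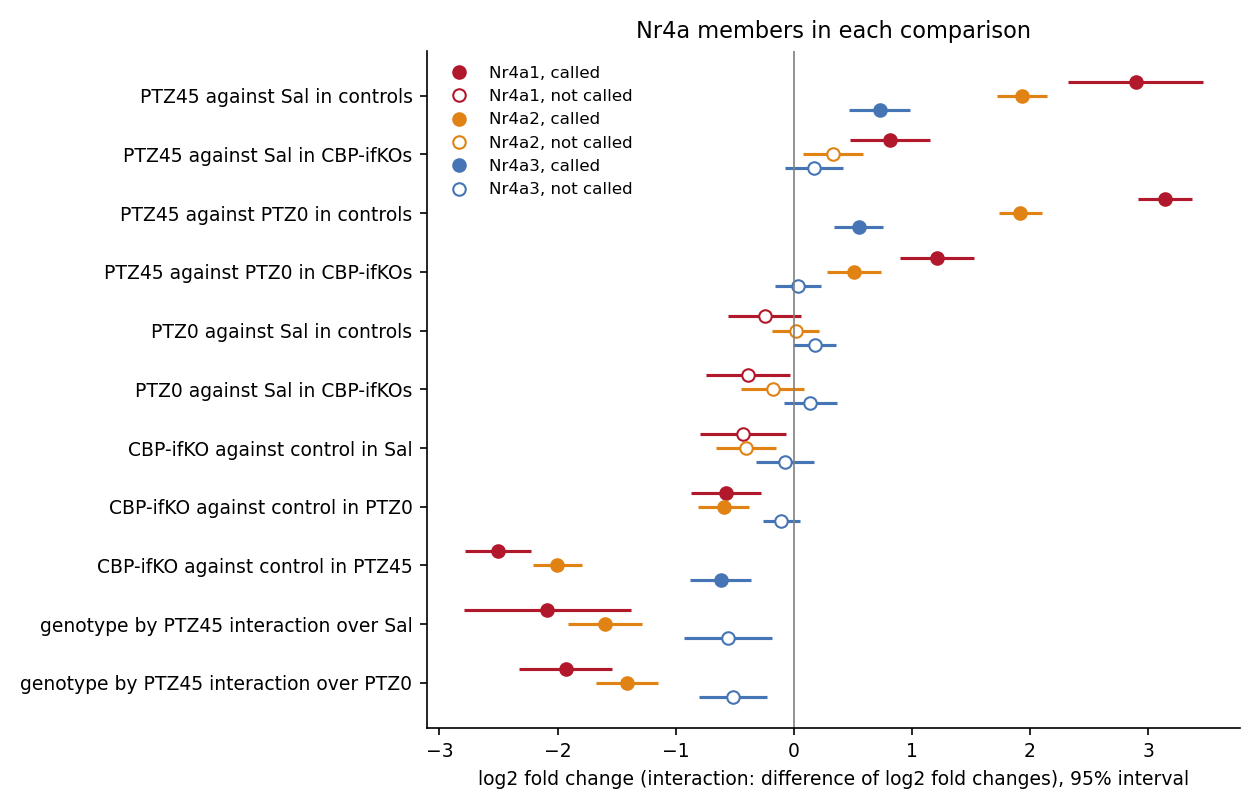
Log2 fold changes of the 3 members in 11 comparisons with 95% intervals, filled where the DESeq2 adjusted p is under 0.05 and open otherwise; the last 2 lines are interactions, that is, differences of log2 fold changes. In each comparison of PTZ45 the estimates are ordered Nr4a1, Nr4a2, Nr4a3 from the largest to the smallest in size, from 3.14 to 0.04 in the comparisons with PTZ0.

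Ordered by mean level, Nr4a1 ran from 176 normalized counts in CBP-ifKO PTZ0 through 232 in CBP-ifKO Sal, 260.1 in Control PTZ0, 308 in Control Sal and 406 in CBP-ifKO PTZ45 to 2298 in Control PTZ45. Each group overlapped its neighbour in this order except Control PTZ45. Nr4a2 ran from 316 in CBP-ifKO PTZ0 through 364 in CBP-ifKO Sal, 451 in CBP-ifKO PTZ45, 474 in Control Sal and 478 in Control PTZ0 to 1810.0 in Control PTZ45. The gaps without overlap were those between CBP-ifKO Sal and CBP-ifKO PTZ45 and below Control PTZ45. Nr4a3 ran from 738 in CBP-ifKO Sal through 775 in Control Sal, 815 in CBP-ifKO PTZ0, 834 in CBP-ifKO PTZ45 and 876 in Control PTZ0 to 1283 in Control PTZ45, the only group that did not overlap its neighbour.

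The make-up of the family was read per kb of exon, since the members differ in exonic length (3509, 4059 and 5987 bases). The summed level was 334 ± 46.6 normalized counts per kb (SD, n = 3) in Control Sal and 1315 ± 152 (n = 2) in Control PTZ45. In CBP-ifKOs it was 279 ± 20.5 in Sal and 366 ± 9.44 in PTZ45 (n = 3 each). In Control Sal, Nr4a3 made up 38.8% of the sum, Nr4a2 35.2% and Nr4a1 26.1%. In Control PTZ45 the order turned, with Nr4a1 at 49.7%, Nr4a2 at 34.1% and Nr4a3 at 16.2%. In CBP-ifKO PTZ45 Nr4a3 still held the largest mean share, 38.1 ± 4.39%, beside 31.5 ± 5.84% for Nr4a1 and 30.4 ± 2.10% for Nr4a2, and the spreads of Nr4a1 and Nr4a3 overlap.

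**Figure D4:**
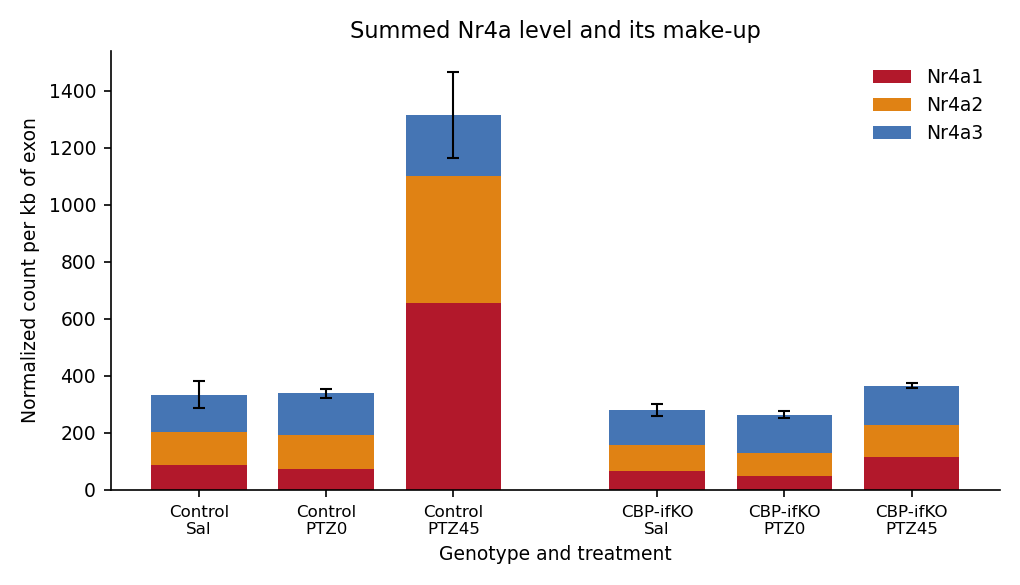
Mean normalized counts per kb of exon for the 3 members, stacked by genotype and treatment, with the SD of the sum as error bars (n = 3, or 2 for Control PTZ45). The sum is 1315 in Control PTZ45 and between 264 and 366 in the other 5 groups.

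Whether the members rose by different amounts was tested on the ratio of a pair within each library, which needs no size factor (log2 of counts per exonic base, 0.5 added to each count). PTZ45 libraries were set against the Sal and PTZ0 libraries of the same genotype by an exact two-sided permutation test, with Benjamini-Hochberg adjustment over 9 tests. In controls the log2 ratio of Nr4a1 over Nr4a2 was 1.1 higher after PTZ, that of Nr4a1 over Nr4a3 2.40 higher and that of Nr4a2 over Nr4a3 1.30 higher. Both PTZ45 libraries were above all 6 others for each ratio, and exact p = 0.0357 was the smallest that 28 assignments allow (adjusted p = 0.0402). In CBP-ifKOs the increases were 0.58 for Nr4a1 over Nr4a2 (exact p = 0.0238) and 0.90 for Nr4a1 over Nr4a3 (exact p = 0.0357), both with adjusted p = 0.0402. For Nr4a2 over Nr4a3 the increase was 0.31 in CBP-ifKOs and did not pass (exact p = 0.131). With genotype as a stratum, the mean increases of 0.84, 1.65 and 0.80 for the 3 ratios gave adjusted p = 0.00383, 0.00383 and 0.00765 in the exact permutation test. No control test passed when any control library was left out (exact test, adjusted p 0.0536 to 0.143), because fewer libraries allow no smaller p. In CBP-ifKOs, Nr4a1 over Nr4a2 did not pass without PTZ45 replicate 2 or 3, nor did Nr4a1 over Nr4a3 without either of these, Sal replicate 1 or any PTZ0 replicate (exact test, adjusted p 0.0603 to 0.161).

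**Figure D5:**
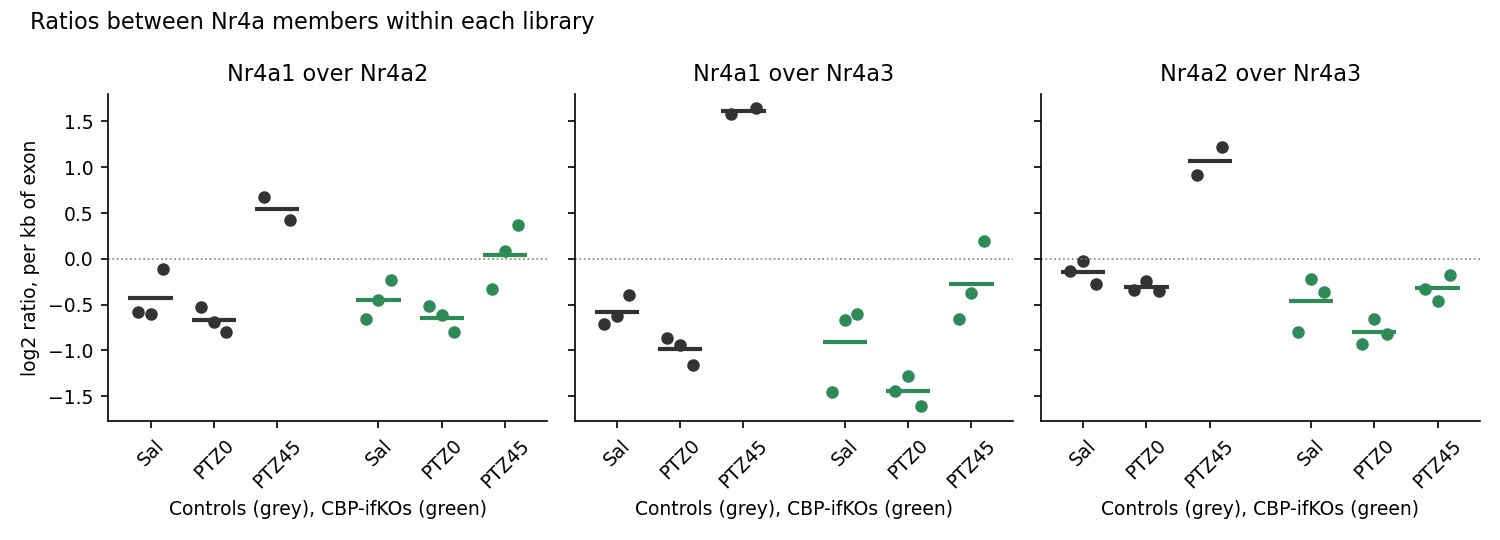
Log2 ratio of each pair of members per kb of exon in every library (points) with group means (lines). The Control PTZ45 libraries lie at 1.59 and 1.64 for Nr4a1 over Nr4a3, while the other control libraries lie between -1.16 and -0.39.

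Genes with the most similar profile were found by the root mean square difference of centred log2(normalized count + 1) over all 17 libraries, over the 13041 genes that averaged 50 counts or more. For Nr4a1 they were Arc (0.242), which encodes a synaptic immediate early protein, the transcription factor Egr4 (0.295) and the AP-1 subunit Junb (0.311), against a root mean square of 1.09 for the profile of Nr4a1 itself. For Nr4a2 they were the transcription factor Egr3 (0.192), Rgs2 (0.203), a regulator of G-protein signalling, and Ptgs2 (0.211), the inducible cyclooxygenase, against 0.73. Nr4a2 was 10th in likeness to Nr4a1, and Nr4a1 was 42nd in likeness to Nr4a2. For Nr4a3 they were Gm49677 (0.121), Kctd12 (0.133), an auxiliary subunit of GABA-B receptors, and the growth factor Fgf10 (0.149), against 0.263, and neither other member was near. These are descriptions over libraries that share groups and lanes.

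The 12 companion immediate early genes (Fos, Fosb, Junb, Npas4, Egr1 to Egr4, Arc, Ier2, Btg2 and Dusp1) set the scale. This list was chosen with earlier results of these data known, so its counts are not an independent test. In controls 12 of 12 were called higher in PTZ45 than in Sal, beside 0.939% of all genes tested. Their median log2 fold change was 3.12, beside 0.01 over all genes tested. Nr4a1 lay just below that median, and Nr4a2 and Nr4a3 lay lower. Npas4, Fos, Fosb, Egr2 and Btg2 had the largest changes, such as 6.08 ± 0.48 (SE) for Fos. In CBP-ifKOs 8 of 12 were called higher than in Sal, beside 0.086% of all genes tested, with a median of 1.16. Egr3, the gene most like Nr4a2, changed by 0.05 ± 0.14 there (DESeq2 adjusted p = 1), and Arc, most like Nr4a1, by 0.57 ± 0.15 (DESeq2 adjusted p = 0.0445). All 12 had a called negative interaction over Sal, beside 0.329% of all genes tested, with a median of -2.47.

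No other nuclear receptor tested was called after PTZ, where few genes of any kind were (1.17% of all genes tested in controls and 0.294% in CBP-ifKOs, in either direction), so the counts of 0 below say little about the lists. Of 46 other nuclear receptors, 32 were tested for PTZ45 against Sal in controls and 34 in CBP-ifKOs, and 0 were called in DESeq2 in either, with median log2 fold changes of 0.05 and -0.04. With unadjusted p under 0.05 there were 3 in controls and 1 in CBP-ifKOs. The retinoid X receptors, partners of Nr4a1 and Nr4a2, gave log2 fold changes in controls of -0.29 ± 0.14 (SE) for Rxra, -0.45 ± 0.14 for Rxrb and 0.13 ± 0.37 for Rxrg, and Rxrb came nearest to a call (DESeq2 adjusted p = 0.0825). Between genotypes, Esr1 was higher in CBP-ifKOs in all 3 treatments, by 3.88 ± 0.17 in Sal (DESeq2 adjusted p = 2.61e-113), and creERT2 carries the ligand-binding domain of this receptor. The thyroid hormone receptors Thra (-0.22 ± 0.06) and Thrb (-0.26 ± 0.08) were lower in CBP-ifKO PTZ0 mice (DESeq2 adjusted p = 0.00699 and 0.0349). These were 2 of 25 receptors tested there, beside 5.25% of all genes called lower.

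Among 12 genes for factors that act on Nr4a promoters (Creb1, Atf1, Crem, Crtc1 to Crtc3, Mef2a, Mef2c, Mef2d, Srf, Crebbp and Ep300), 0 were called for PTZ45 against Sal in either genotype by DESeq2, with unadjusted p under 0.05 for 3 in controls and 0 in CBP-ifKOs, beside 1.17% and 0.294% of all genes called. Crem, whose inducible product represses CRE sites, had a log2 fold change of 0.54 ± 0.18 (SE) in controls (DESeq2 adjusted p = 0.145). Between genotypes, Crebbp was lower in all 3 treatments (log2 fold change -0.79 ± 0.11 in Sal; DESeq2 adjusted p = 2.4e-09). Its paralogue Ep300 was higher in CBP-ifKO PTZ0 (0.29 ± 0.09; adjusted p = 0.0149 in DESeq2), 1 of 12 factors called higher there, beside 1.43% of all genes. Srf, the factor of CArG boxes, was lower in CBP-ifKO PTZ45 (-0.54 ± 0.17; adjusted p = 0.0455 in DESeq2), where 2 of 12 factors, Crebbp among them, and 2.82% of all genes were called lower.

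Among the nuclear receptor coregulators, the corepressor Nrip1 was lower in CBP-ifKOs than in controls after PTZ (-0.34 ± 0.10; DESeq2 adjusted p = 0.0252). It was 1 of 14 coregulators called lower there, beside 2.82% of all genes. Of 9 textbook Nr4a targets, most of them genes of dopamine neurons, 6 were tested in controls and 7 in CBP-ifKOs for PTZ45 against Sal, and 0 were called in DESeq2, with unadjusted p under 0.05 for 1 and 0. That 1 gene was Bdnf, the neurotrophin (0.37 ± 0.11; DESeq2 adjusted p = 0.0841), which CREB also regulates. Bdnf was lower in CBP-ifKOs by log2 fold changes of -0.73 ± 0.12 in Sal, -0.86 ± 0.11 in PTZ0 and -0.88 ± 0.13 in PTZ45 (DESeq2 adjusted p = 1.22e-07, 3.33e-13 and 1.93e-09), whereas its interaction over Sal was -0.16 ± 0.15 (adjusted p = 1 in DESeq2).

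None of the 9 lists of cell type markers held a gene called for PTZ45 against Sal in either genotype by DESeq2, with unadjusted p under 0.05 for at most 3 genes of a list, beside 1.17% of all genes called in controls and 0.294% in CBP-ifKOs. The summed dentate granule cell markers ran from 5227 to 6325 normalized counts in Control Sal and from 5794 to 6298 in Control PTZ45, and the CA pyramidal cell markers from 7088 to 7660 and from 7474 to 7915. Choroid plexus markers summed to between 743 and 882 in Control PTZ45, where no library was high. Between genotypes, the CA1 markers Wfs1 and Fibcd1 and the dentate marker C1ql2 were called lower in CBP-ifKOs in all 3 treatments. Of all genes tested, 1.77% were called lower in Sal, 5.25% in PTZ0 and 2.82% in PTZ45. Of the 8 CA pyramidal cell markers, 2 were called lower in each treatment. Of the 7 dentate markers, 1 was called lower in Sal and 2 in each of PTZ0 and PTZ45. The dentate list moved in both directions, since Prox1, a transcription factor of granule cells, was called higher in CBP-ifKO PTZ0 (log2 fold change 0.34 ± 0.08, SE; DESeq2 adjusted p = 0.000513). Prox1 was 1 of 7 dentate markers called higher there, beside 1.43% of all genes. The summed CA pyramidal cell markers in Sal ran from 6000.0 to 6599 in CBP-ifKOs, below the controls, while the dentate markers overlapped. Interneuron markers also did not overlap in Sal, at 6700.0 to 6775 in controls and 5898 to 6306 in CBP-ifKOs. The difference was not limited to neuronal markers, since astrocyte markers ran from 13810.0 to 14870.0 in Control Sal and from 12010.0 to 13190.0 in CBP-ifKO Sal, and Slc1a3, an astrocyte glutamate transporter, was called lower there (log2 fold change -0.24 ± 0.07, SE; DESeq2 adjusted p = 0.0321). Slc1a3 was 1 of 6 astrocyte markers called lower in Sal, beside 1.77% of all genes. In PTZ0, where Nr4a1 and Nr4a2 were called lower, the summed CA pyramidal cell markers ran from 7350.0 to 7667 in controls and from 5952 to 6640.0 in CBP-ifKOs. The subiculum and deep cortex markers ran from 3696 to 3965 and from 3055 to 3325, and the astrocyte markers from 13790.0 to 14810.0 and from 12520.0 to 13720.0, again without overlap, whereas the dentate, interneuron and oligodendrocyte markers overlapped. Called lower there, beside those named above, were Tshz2 (-0.62 ± 0.11, SE), Tle4 (-0.26 ± 0.09), the dentate marker Tdo2 (-1.04 ± 0.23) and the oligodendrocyte marker Cnp (-0.29 ± 0.08). Tshz2 and Tle4 were 2 of 6 subiculum and deep cortex markers tested, and Cnp was 1 of 6 oligodendrocyte markers, beside 5.25% of all genes. In PTZ45 the CA pyramidal cell markers ran from 6330.0 to 6581 and the interneuron markers from 6186 to 6489 in CBP-ifKOs, below the controls, whose interneuron markers ran from 6778 to 6930.0. The subiculum and deep cortex markers only just separated, at 3545 to 4359 in controls and 3029 to 3544 in CBP-ifKOs. The dentate, astrocyte and oligodendrocyte markers overlapped there, and Tdo2 was again called lower. The part of these levels in the lower Nr4a1 and Nr4a2 of CBP-ifKOs was not tested.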

How the data were processed

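Total RNA of the mouse hippocampus was sequenced as 50-base single-end reads in 17 libraries. The authors trimmed the reads, aligned them with STAR 2.6.1 to mm10 (GRCm38), removed reads of low mapping quality and deposited raw counts per gene over Ensembl exons (Rsubread), with no normalization. Whether strand was used is not given in the sources used here. Of 18 count columns, 1 matched no sample and was not used. Its name resembles those of the Control PTZ45 columns, the group analysed here with 2 libraries.

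Pairs of groups were fitted alone in DESeq2 1.42.0 (R 4.3.3; Wald test, two-sided, genes with at least 1 count, independent filtering), and interactions on the 4 groups involved. A gene was called at an adjusted p (Benjamini-Hochberg, over all genes) under 0.05. Symbols, lengths and coordinates came from GENCODE M21, which held 99.6% of the gene identifiers. Alternatives were edgeR 4.0.16, TMM size factors, a filter of 10 counts in 2 libraries, 1 fit of all libraries, the replicate number as a block, a GC content correction (loess, span 0.5) and leaving out each library. The fits were tested on simulated data. The text names the members, Crebbp, the 3 most similar genes of each member, and up to 5 called genes per list, beside list genes named after their values were seen. The values of 1 gene of the lists are not reported here. The members and the lists were chosen with earlier results of these data known. Libraries with the same replicate number did not deviate together in every comparison, so the numbers were not taken to pair samples. Control PTZ45 replicate 2 carries the number 3 in its column name, and the block was also fitted with that number, an alternative chosen after seeing the data.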

Additional observations from a re-analysis of the deposited data

Results flagged for a closer look

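The response to PTZ differed between genotypes for Nr4a1 and Nr4a2 by a test of the difference itself. The interaction over Sal was -2.09 for Nr4a1 and -1.60 for Nr4a2 on the log2 scale (DESeq2 adjusted p = 5.25e-06 and 2.27e-20). Over PTZ0 it was -1.93 for Nr4a1 and -1.41 for Nr4a2 (DESeq2 adjusted p = 9.56e-19 and 2.66e-22). Both CBP-ifKO groups compared over PTZ0 lie on lane 5, whereas the control groups lie on lanes 3 and 4, so lane and genotype cannot be told apart.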

How the results depend on the processing

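TMM size factors, the filter of at least 10 counts in 2 libraries and the GC content correction changed the call or direction of none of the 33 results for the members. The edgeR quasi-likelihood test called 4 more: log2 fold changes of -0.43 (Nr4a1) and -0.40 (Nr4a2) for CBP-ifKO against control in Sal, and interactions of Nr4a3 of -0.55 over Sal and -0.51 over PTZ0. In each of these comparisons edgeR also called more genes of any kind lower than DESeq2 did. In 1 fit of all 17 libraries, Nr4a2 in Sal was called (-0.41) and Nr4a1 in PTZ0 was not (-0.57, adjusted p = 0.121 in DESeq2). With the replicate block, 3 calls were lost: Nr4a3 for PTZ45 against PTZ0 in controls (0.53), Nr4a2 for PTZ45 against PTZ0 in CBP-ifKOs (0.51) and Nr4a3 between genotypes in PTZ45 (-0.52). The block by the labels' numbers changed no other call. With Control PTZ45 replicate 2 numbered 3 as in its column name, a block chosen after seeing the data, Nr4a3 for PTZ45 against Sal in controls was not called (0.70, adjusted p = 0.253 in DESeq2), and the other 14 results with Control PTZ45 had the calls of the fits without a block. The correlation of the deviations of same-numbered libraries ran from -0.523 to 0.479 by the labels' numbers, and from -0.157 to 0.167 by column names for the comparisons of pairs with Control PTZ45, so the numbers were not taken as a pairing. With 5 added to each count, the ratio of Nr4a1 over Nr4a3 in CBP-ifKOs was 0.88 (exact test, adjusted p = 0.0536). The cause of these changes was not tested.

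Leaving out 1 library changed these calls, with the log2 range over all left-out libraries: Nr4a3 for PTZ45 against Sal in controls (0.53 to 0.90), Nr4a1 for PTZ45 against Sal (0.66 to 0.95) and Nr4a2 for PTZ45 against PTZ0 (0.47 to 0.57) in CBP-ifKOs. Between genotypes they were Nr4a2 in Sal (-0.51 to -0.34), called without CBP-ifKO Sal replicate 2, Nr4a1 in PTZ0 (-0.66 to -0.47), Nr4a3 in PTZ45 (-0.79 to -0.42) and the interaction of Nr4a3 over PTZ0 (-0.69 to -0.32), called without Control PTZ45 replicate 2 (-0.69). The ratio changes ran from 0.97 to 1.23 for Nr4a1 over Nr4a2, 2.32 to 2.48 for Nr4a1 over Nr4a3 and 1.14 to 1.45 for Nr4a2 over Nr4a3 in controls, and from 0.42 to 0.77 and 0.66 to 1.08 for the first 2 in CBP-ifKOs. Values near 0 that changed sign without being called were Nr4a3 for PTZ45 against PTZ0 in CBP-ifKOs (-0.025 to 0.126), Nr4a2 for PTZ0 against Sal in controls (-0.058 to 0.054) and Nr4a3 between genotypes in Sal (-0.19 to 0.037). Where 1 library was left in Control PTZ45, it was assumed to vary like the others.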
